A study of Arabidopsis thaliana with 4 samples.

Results

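The transcripts described here are read by the probe sets that the array holds for the mitochondrial genome of Arabidopsis thaliana in a run of consecutive identifiers. The members were taken by identifier number alone, with no measured value in the rule, and came to 31 of the 22746 probe sets in the table. The choice of this set was nevertheless made with earlier results of these data known. The platform annotation paired 10 of the 31 with 1 gene and left 21 without a name. Of the 10, 7 carried a mitochondrial gene (nad4L, nad7, nad4, ccb382, ccb203, matR and orfX) and 3 carried a locus of nuclear chromosome 2 (AT2G07751, AT2G07674 and AT2G07776). The label of a mitochondrial block thus held for the 7, was not borne out by the annotation for the 3, and could not be checked for the 21. Elsewhere on the array 11 probe sets were annotated with both a mitochondrial gene and a chromosome 2 locus. Chromosome 2 of the reference accession is known to carry a large insertion of mitochondrial DNA, and signal from such copies cannot be told apart here from signal of the mitochondrial genes.

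Total RNA was profiled from segregants of 1 parental line of an albino mutant, with 2 arrays labelled control (segregants of normal appearance) and 2 labelled albino. All plants were 3 weeks old and shared a plate of diluted Murashige and Skoog (MS) medium that contained sucrose, and the labels name no organ. The design asks what a strong albino mutation does to expression across the genome. The labels name neither the mutated gene nor the genotype of the normal segregants, and their free text calls all 4 samples wild type, so no targeted transcript could check the titles and the groups are called by their titles.

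Plant mitochondria keep a small set of genes, mainly for subunits of the respiratory chain, for the assembly of c-type cytochromes, and for mitochondrial ribosomes. Most subunits of the same complexes are encoded in the nucleus and imported, so that each complex is built from the products of both genomes. Mitochondrial transcripts are made by phage-type RNA polymerases and then spliced, edited and trimmed by nuclear-encoded proteins. They are not stably polyadenylated, and the labels do not state the primer used for complementary DNA on these arrays. In such bulk tissue, more cells rich in mitochondria and more mitochondrial RNA per cell cannot be told apart.

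Values are log2 summaries from RMA (robust multi-array average). A difference is albino minus control on that scale, so that 1.0 is 2-fold, and the difference of 2 arrays with the same replicate number is called the difference in replicate 1 or replicate 2. The arrays of 1 replicate number had nearly the same value distribution (quantiles within 0.0702 and 0.085), whereas the 2 control arrays differed by up to 0.354, so the numbers look normalized apart and levels are set side by side within a number. Where values are compared across the numbers below, the comparison includes this apparent separate scaling. The median over all probe sets was 5.84 and 5.85 on the control and albino arrays of replicate 1, and 6.12 on both arrays of replicate 2. Leaf transcripts chosen as an organ check (RCA, LHCB4.1, PSAN and HPR, 4 of 4 measured) had medians between 11.69 and 12.01 on the 4 arrays. All 4 were higher on the albino array in both numbers, with median differences of 0.28 and 0.22, which exceed those of the mitochondrial block given below. The root gene PYK10 was lower on the albino arrays, by a difference of -2.29 in replicate 1 and -0.67 in replicate 2, and the root hair genes EXPA7 (-0.70 and 0.14) and EXPA18 (0.18 and 0.27) had low signals. The median of these 3 root genes lay between 4.02 and 4.87 on the 4 arrays. The part of organ make-up in the results below was not tested.

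The mitochondrial block leaned towards higher values on the albino arrays, by small amounts. Of its 31 probe sets, 16 were higher in both replicate numbers, where 34.6% of all probe sets were, and 5 were lower in both, where 28.5% of all were. The other 10 went opposite ways. The median difference of the block was 0.20, with 0.13 in replicate 1 and 0.17 in replicate 2, against 0.02, 0.01 and 0.03 over all probe sets. It was 0.0245 without albino replicate 1 and 0.0317 without control replicate 2, in fits that set arrays of different replicate numbers against each other. The values within replicate 1 and replicate 2 each leave out one of these arrays and do not mix the numbers. The 7 probe sets named for mitochondrial genes were all higher in both replicate numbers, with a median of 0.33 in each, and the 21 without a gene name had medians of 0.01 and 0.07. Their signal differed too, with a median level of 5.55 for the 7 and 3.94 for the 21.

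No member passed the test. With limma over all probe sets and Benjamini-Hochberg adjustment, 0 of the 31 were called at 0.05, as were 0% of all probe sets. At an unadjusted p under 0.05 there was 1 member higher and 0 lower, where 2.68% of all probe sets were higher and 3.08% lower. The smallest adjusted p of a member was 0.846, and with the replicate number as a block it was 0.282, again with 0 calls. An ordinary linear model without variance moderation also called 0 members. Values of single transcripts below are therefore differences with their standard errors (SE), not calls. The labels do not say whether replicates came from different plants. SEs and p-values thus cover only array-to-array spread, possibly technical. In the fit without the block, this spread includes the gap between the replicate numbers, which look normalized apart. The median SE of the members was 0.32 in that fit and 0.16 with the block.

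**Figure D1:**
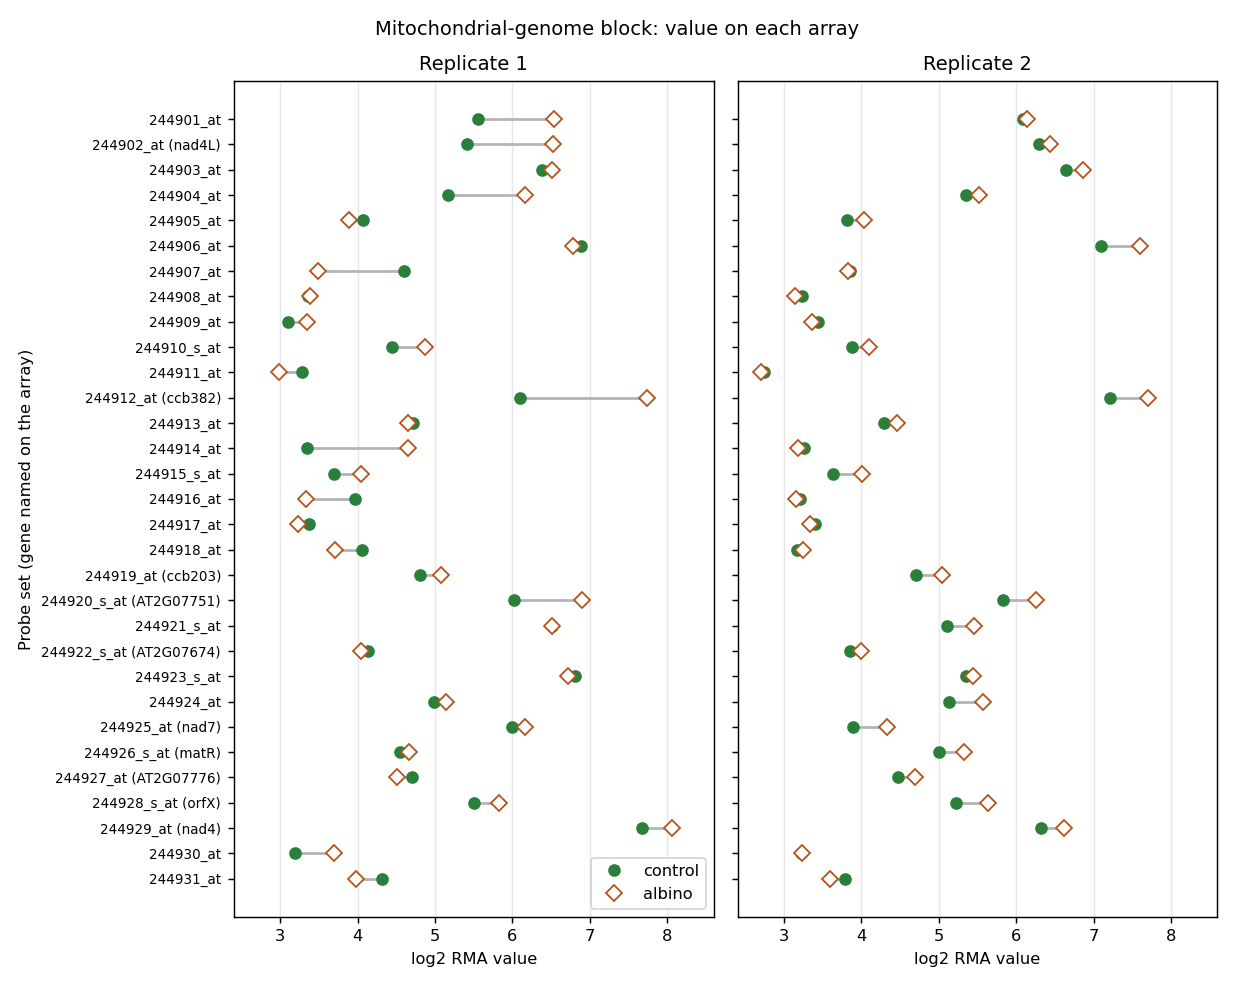
Log2 RMA value (x axis) of each of the 31 probe sets of the mitochondrial block (y axis, with the gene the annotation gives) on the control array (filled circle) and the albino array (open diamond) of replicate 1 (left) and replicate 2 (right), joined by a line. The longest lines are those of replicate 1, among them ccb382, where the control array read 6.10 and the albino array 7.74.

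Complex I, the NADH dehydrogenase at the entry of the respiratory chain, gave 3 named members. nad4L codes for a small membrane subunit of its proton-pumping arm. Its value was 5.41 on the control and 6.53 on the albino array of replicate 1, and 6.29 and 6.44 on those of replicate 2. Both albino values lay above both control values, and the control array of replicate 1 stood below the other 3 arrays. The difference was 1.12 in replicate 1 and 0.15 in replicate 2, or 0.63 (SE 0.36, limma adjusted p = 1.00) over the 4 arrays.

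nad4 codes for a large membrane subunit of the same arm. It read 7.67 and 8.07 on the control and albino arrays of replicate 1 and 6.32 and 6.62 on those of replicate 2. The differences of 0.40 and 0.30 were alike in both numbers, while the level of each group was higher by more than 1.0 in replicate 1, so the groups overlapped. nad7 codes for a subunit of the peripheral arm, close to where ubiquinone is reduced. It read 5.99 and 6.16 in replicate 1 and 3.89 and 4.33 in replicate 2, differences of 0.17 and 0.45. The gap between the replicate numbers was again several times the difference between the groups. Because of that gap the SE of the difference was 0.64 for nad4 and 0.86 for nad7, against 0.15 and 0.16 with the replicate number as a block.

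Cytochrome c maturation attaches haem to c-type cytochromes, and the haem ligation protein CcmF is encoded in pieces in this mitochondrial genome. ccb382, now named ccmFN1, had the largest difference of the block in size. It read 6.10 and 7.74 on the control and albino arrays of replicate 1, and 7.22 and 7.70 on those of replicate 2. Both albino arrays lay above both controls, the albino values were close together (7.72 ± 0.03, SD, n = 2), and the control values were far apart (6.66 ± 0.79, SD, n = 2). These spreads cross the replicate numbers and so include their apparent separate scaling. The difference was 1.64 in replicate 1, or 3.13-fold, and 0.49 in replicate 2, or 1.40-fold. Over the 4 arrays it was 1.07 (SE 0.41, limma unadjusted p = 0.0441, adjusted p = 0.846, and 0.299 with the block).

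ccb203, now named ccmFN2, codes for the adjoining piece of the same protein. It read 4.81 and 5.08 in replicate 1 and 4.71 and 5.04 in replicate 2, with the albino arrays above both controls. The differences of 0.26 and 0.33 were the most alike between the numbers among the 10 named members, and their mean was 0.30 (SE 0.25). The pieces thus had similar differences in replicate 2 (0.49 and 0.33) and unlike ones in replicate 1 (1.64 and 0.26).

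matR codes for a maturase that takes part in the splicing of mitochondrial introns. It read 4.55 and 4.66 in replicate 1 and 5.0 and 5.33 in replicate 2. It was higher on the albino array in both numbers, by 0.12 and 0.33, yet the groups overlapped and the SE of the mean difference of 0.22 was 0.34. orfX, now named mttB, codes for a protein related to the TatC component of twin-arginine protein transport. It read 5.50 and 5.83 in replicate 1 and 5.23 and 5.64 in replicate 2, and its albino values lay above both control values. The difference of 0.37 had an SE of 0.26. Both probe sets carry the suffix for sequences shared by several transcripts.

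**Figure D2:**
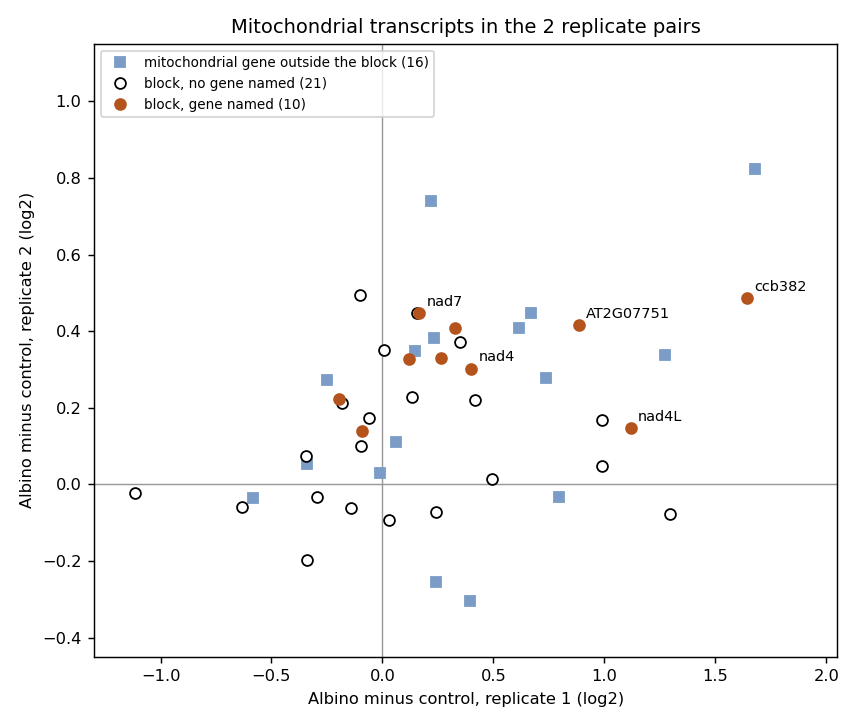
Albino minus control difference (log2) in replicate 1 (x axis) and replicate 2 (y axis) for the 21 unnamed (open circles) and 10 named (filled circles) probe sets of the block and for 16 probe sets of mitochondrial genes elsewhere on the array (squares). Points in the upper right are higher in both numbers, as nad4L, nad7, nad4, ccb382 and AT2G07751 are.

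Of the members named for chromosome 2, 1 was among the larger differences. AT2G07751 read 6.02 and 6.90 in replicate 1 and 5.84 and 6.25 in replicate 2, with both albino arrays above both controls. Its differences of 0.88 and 0.42 averaged 0.65 (SE 0.32, limma adjusted p = 0.992, and 0.282 with the block). AT2G07674 (-0.09 and 0.14) and AT2G07776 (-0.19 and 0.22) changed sign between the numbers. The probe sets of AT2G07751 and AT2G07674 also carry the suffix for shared sequence. For AT2G07776 the values were 4.70 and 4.51 on the control and albino arrays of replicate 1, and 4.47 and 4.69 on those of replicate 2.

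Among the unnamed members, 244904_at read 5.17 and 6.16 in replicate 1 and 5.35 and 5.52 in replicate 2. The unnamed probe set numbered just before nad4L read 5.56 and 6.54 in replicate 1 and 6.09 and 6.14 in replicate 2. Both had a difference of 0.99 in replicate 1 and only 0.17 and 0.05 in replicate 2. In 244904_at the albino array of replicate 1 stood above the other 3, and in its companion the control array of replicate 1 was the lowest. The largest lower member was 244907_at, with 4.60 and 3.48 in replicate 1 and 3.85 and 3.83 in replicate 2. Nearly all of its mean difference of -0.57 (SE 0.35) came from replicate 1, where it was -1.12.

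The sharpest disagreement between the numbers was that of 244914_at, which read 3.35 and 4.65 in replicate 1 and 3.25 and 3.18 in replicate 2. The albino array of replicate 1 stood alone above the other 3. The reverse case was 244906_at, one of the members with high signal, with 6.89 and 6.79 in replicate 1 and 7.10 and 7.59 in replicate 2. Here the albino array of replicate 2 stood above the rest. A dim member, 244918_at, read 4.05 and 3.71 in replicate 1 and 3.17 and 3.25 in replicate 2. The member with the lowest signal, 244911_at, read 3.28 and 2.99 in replicate 1 and 2.74 and 2.70 in replicate 2. For both of these the replicate numbers lay further apart, on average, than the groups.

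Large differences were a matter of replicate 1, where they were also more frequent over all probe sets. There 3 members were at least 2-fold higher, where 3.47% of all probe sets were, and 1 was at least 2-fold lower, where 4.15% of all were. In replicate 2 no member reached 2-fold higher, where 1.06% of all probe sets did. Both albino arrays lay above both controls for 10 members, against 16.2% of all probe sets, and below both for 2, against 13.6%. The median size of a member's difference, whatever its sign, was 0.29 in replicate 1 and 0.20 in replicate 2, against 0.30 and 0.19 over all probe sets. Replicate 1 gave the larger size for 16 of the 31 members and for 15186 of all 22746 probe sets. The 2 control arrays differed from each other by a median of 0.33 and the 2 albino arrays by 0.36. Over all probe sets these gaps were 0.37 and 0.34, and they include the separate scaling of the numbers. As a description, differences in replicate 1 and replicate 2 were correlated over the 31 members with r = 0.29 (Pearson) and rho = 0.30 (Spearman), against 0.59 and 0.43 over all probe sets. Members are read on the same 4 arrays and are not independent points.

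The direction also varied with signal. Of the 8 members brighter than the median probe set of the array, 6 were higher in both numbers and 0 lower, with medians of 0.64 in replicate 1 and 0.27 in replicate 2. In this range nad4L, AT2G07751 and the unnamed probe set before nad4L had control means of 5.85, 5.93 and 5.82. These lay below the lower bound of the range, 5.98, and the albino means (6.48, 6.58 and 6.34) lay above it. Of the 10 between the lower quartile and the median, 8 were higher in both and 0 lower. The 13 in the dimmest 25% of the array had 2 higher and 5 lower, with medians of -0.14 and -0.03. Of these 5 lower members, 244907_at and another unnamed member had control means of 4.23 and 4.06, above the range's upper bound of 4.01. Their albino means of 3.66 and 3.79 brought them into it. The counts by range are thus partly set by the ranking, and its share in them was not tested. Over all probe sets of the array the corresponding 3 ranges had median mean differences of 0.01, 0.04 and 0.03. In these ranges, from bright to dim, 36.2%, 34.6% and 31.4% of all probe sets were higher in both numbers. The shares lower in both were 34.6%, 25.2% and 19.7%. The table gives no detection call, so whether the dim members measure a transcript at all cannot be told.

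**Figure D3:**
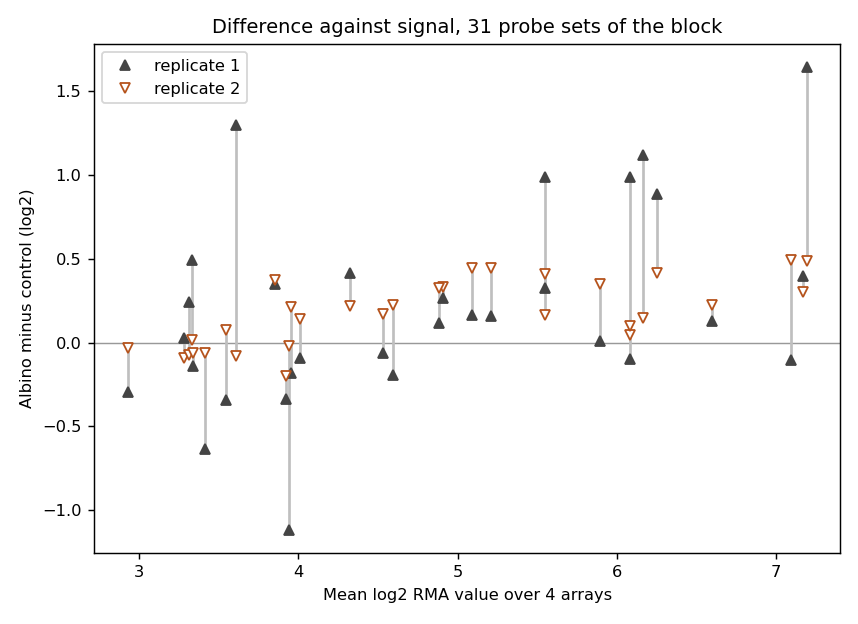
Albino minus control difference (log2, y axis) of each of the 31 members in replicate 1 (filled triangles) and replicate 2 (open triangles), joined by a line, against its mean log2 RMA value over the 4 arrays (x axis). At the right end ccb382 reaches 1.64 in replicate 1, and the lowest point is 244907_at at -1.12.

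Mitochondrial genes with probe sets outside the block had similar values. These were 16 probe sets of 9 genes, with median differences of 0.24 in replicate 1 and 0.28 in replicate 2. They comprised 9 higher in both numbers, 1 lower and 6 of opposite sign. The largest difference was that of 1 of the 2 probe sets of nad5, a membrane subunit of complex I. It read 6.16 and 7.84 in replicate 1 and 6.74 and 7.57 in replicate 2, with both albino arrays above both controls, and the mean difference was 1.25 (SE 0.31, limma adjusted p = 0.723). The other nad5 probe set, without the suffix for shared sequence, differed by 0.15 and 0.35, so the probe sets of this gene disagree in size. nad9, of the peripheral arm, differed by 1.27 in replicate 1 and 0.34 in replicate 2.

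Other subunits outside the block gave mixed values. cox1, the catalytic subunit of cytochrome c oxidase, read 8.41 and 9.02 in replicate 1 and 8.38 and 8.79 in replicate 2, a difference of 0.51 (SE 0.26). cox2, which takes electrons from cytochrome c, was the 1 lower in both numbers, by differences of -0.58 and -0.04. The cytochrome c maturation genes ccb206 (ccmB, 0.24 and -0.25) and ccb452 (ccmFC, -0.34 and 0.05) had opposite signs, unlike the ccmFN pieces of the block. nad6 (0.80 and -0.03) and nad2 (-0.01 and 0.03) also changed sign. The 7 probe sets of nad1, whose transcript is assembled by trans-splicing, had differences between -0.30 and 0.74 within the numbers, with 5 higher in both numbers. Over all 15 mitochondrial probe sets of complex I, 11 were higher in both numbers, 0 lower and 4 of opposite sign.

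The 11 probe sets shared by a mitochondrial gene and a chromosome 2 locus are named for several genes and so are only counted. Of these, 8 were higher in both numbers and 0 lower, with medians of 0.47 and 0.19. The plastid genome, the other organelle genome of these plants, had wider differences. Its 69 single-gene probe sets ran from -1.22 to 3.06 in replicate 1, with a median of 0.71, and from -1.88 to 1.79 in replicate 2, with a median of 0.12. Of these, 37 were higher in both numbers and 12 lower, and 30 were at least 2-fold higher in replicate 1 against 3 of the 31 of the mitochondrial block. The difference between the sets was not tested.

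**Figure D4:**
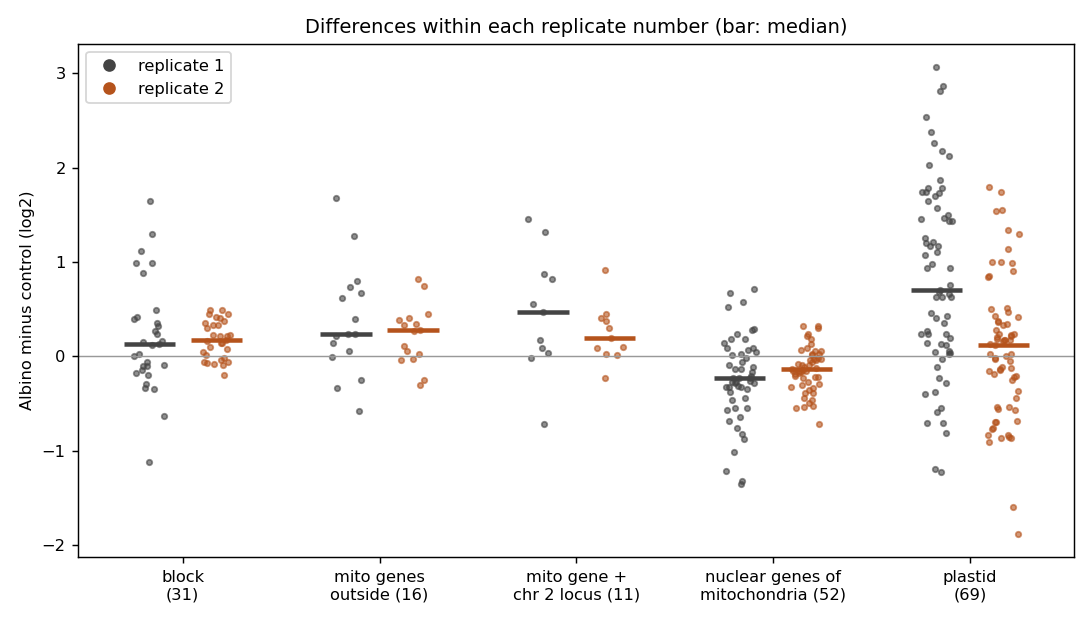
Albino minus control difference (log2, y axis) within replicate 1 and replicate 2 for the mitochondrial block (31 probe sets), mitochondrial genes outside it (16), probe sets shared with chromosome 2 (11), listed nuclear genes of mitochondria (52) and the plastid genome (69). Each point is a probe set and each bar a median, which for the block is 0.13 and 0.17 and for the nuclear genes -0.23 and -0.14.

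Nuclear genes for subunits of the respiratory complexes and the ATP synthase leaned the other way. Of 57 listed 35 were measured, meaning that a probe set was annotated with that gene alone. Others may be read by probe sets that carry no gene name or several. Of the 35, 26 were lower in both numbers, 2 higher and 7 of opposite sign, with medians of -0.28 and -0.16. Over all probe sets 28.5% were lower in both and 34.6% higher. Of those brighter than the array median, 34.6% were lower in both and 36.2% higher. The same shares apply to the counts of single lists below. Of all 103 listed nuclear genes for respiratory subunits, mitochondrial RNA metabolism and related functions, 52 were measured. Of these 30 were lower in both numbers and 8 higher, with medians of -0.23 and -0.14. In limma 0 of the 52 were called. At an unadjusted p under 0.05, 3 were lower and 0 higher, where 3.08% of all probe sets were lower and 2.68% higher. With the block 9 were lower and 0 higher, where 7.53% of all probe sets were lower and 7.17% higher. The contrast between the genomes was not tested.

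Among 13 measured nuclear genes of complex I (of 22 listed), 7 were lower in both numbers and 1 higher, with a median difference of -0.13 (0.0079 without albino replicate 1 and -0.31 without albino replicate 2). AT5G18800, for an accessory subunit, differed by -0.54 and -0.39, and FRO1, for a subunit of the peripheral arm, by -0.32 and -0.44. For complexes II and III, 8 of 9 measured genes were lower in both numbers and 1 higher, with a median of -0.55 (-0.32 without albino replicate 1). SDH1-1, the flavoprotein of succinate dehydrogenase, read 10.18 and 8.86 in replicate 1 and 10.06 and 9.51 in replicate 2, with both albino arrays below both controls. Its difference was -0.93 (SE 0.32, limma adjusted p = 0.787, and 0.255 with the block). SDH2-1, an iron-sulfur subunit of that enzyme, differed by -1.01 and -0.39.

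For cytochrome c and the nuclear subunits of cytochrome c oxidase, 7 of 8 measured genes were lower in both numbers, 0 were higher, and the median was -0.40. AT3G15640, a subunit of the oxidase, read 8.56 and 7.80 in replicate 1 and 8.80 and 8.08 in replicate 2. Its difference of -0.74 (SE 0.27, limma adjusted p = 0.802, and 0.217 with the block) was alike in both numbers, at -0.76 and -0.71. CYTC-2, a cytochrome c gene, differed by -0.64 and -0.46. The 5 measured genes of the mitochondrial ATP synthase had a median of -0.13, with 4 lower in both and 0 higher. Without control replicate 2 that median was -0.0173 and without albino replicate 1 it was -0.0598. The smallest p-values there were those of AT4G26210 (-0.13 and -0.14) and AT1G51650 (-0.22 and -0.04).

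Genes for making and processing mitochondrial RNA leaned higher. Of 5 measured of 14 listed, 4 were higher in both numbers and 0 lower, with a median of 0.18 (0.0935 without control replicate 1). AT5G15700, a phage-type RNA polymerase that works in mitochondria and plastids, differed by 0.53 and 0.32. OTP43, which is needed for trans-splicing of nad1, differed by 0.28 and 0.33. CCMH, the 1 measured nuclear gene of cytochrome c maturation of 3 listed, differed by 0.72 and 0.24, and its mean difference ran from 0.0329 to 0.92 without control replicate 1 and 2, respectively. The mean differences of these 3 genes were 0.43 (SE 0.34), 0.30 (SE 0.36) and 0.48 (SE 0.38).

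Of the other lists, nuclear genes of mitochondrial ribosomal proteins had 2 measured of 6 listed. These differed by -0.18 (AT2G44065) and -0.07 (AT1G07210), and their median turned positive without albino replicate 1 (0.15) or control replicate 2 (0.12). For alternative respiration and uncoupling, 4 of 13 listed genes were measured, NDB1, NDB2, NDB3 and NDB4, so the rest of that list is not covered. Of these, 1 was lower in both numbers and 3 were of opposite sign. The lower one was NDB2, an external alternative NADH dehydrogenase, with -1.21 and -0.30, and NDB3 differed by 0.57 and -0.02. In the list of genes that respond to impaired mitochondria, 6 of 12 were measured. Of these, 3 were lower in both numbers and 1 higher. Their median of -0.15 ran from -0.0044 without albino replicate 1 to -0.32 without control replicate 1. AT2G41730 had the smallest p there, with differences of -1.35 and -0.53 (limma adjusted p = 0.846), followed by NDB2, which is also in the preceding list.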

How the data were processed

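The authors deposited log2 probe-set values; RMA is named per the submitters' processing notes, and no software version is stated there. Total RNA of 4 plant samples was measured, 2 per group. Members, gene lists and tests were chosen with earlier results of these data known.

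Groups came from the sample titles. Genes came from the platform annotation, where 13513 probe sets had 1 gene, 503 several and 8730 none. Mitochondrial symbols were matched to the TAIR10.1 gene table by symbol or synonym, other genes by gene ID (13436 matched). For a listed gene with several single-gene probe sets, the brightest was used. The test was limma 3.58.1 under R 4.3.3 (two-sided, Benjamini-Hochberg over all 22746 probe sets, threshold 0.05, 2 residual degrees of freedom, or 1 in the blocked fit). The fit was tested on simulated data. The number of arrays limits the precision.

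Values on every array were given for nad4L, ccb382, the 6 largest differences of the same sign in both numbers, the 4 largest gaps of opposite sign, and the brightest and dimmest members, and values were given for the 2 genes of smallest p per list. The other named mitochondrial genes, and the array values of SDH1-1 and AT3G15640, were added after their values were seen. Alternatives were 3 rescalings, a filter on dim probe sets, 2 other variance settings, the block, 3 other member sets and each array left out in turn. No sequences of these genes were used here.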

Additional observations from a re-analysis of the deposited data

How the results depend on the processing

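No member of the mitochondrial block was called by limma under any of the 14 alternatives. Over all probe sets 1 was called without variance moderation, and between 0 and 182 when 1 array was left out, the 182 without albino replicate 2. Such a fit has 1 residual degree of freedom, assumes that the lone array varies like the other group, and compares across the separately scaled numbers, so it says little about stability. Same-numbered arrays deviated together (r = 0.66 over all probe sets), but the labels do not say what a number marks. With the replicate block the block's median was 0.20, 0 members were called and the adjusted p of the 11 members followed lay between 0.282 and 0.980.

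The block's median difference ran from 0.0245 (without albino replicate 1) to 0.24 (without control replicate 1) when 1 array was left out, and was 0.0317 without control replicate 2. The plastid median ran from 0.0257 (without albino replicate 1) to 0.72. Quantile normalization moved the replicate 2 median to 0.14, and cyclic loess the medians of replicate 1 and 2 to 0.0838 and 0.14. A filter that dropped the dimmest 25% took away 13 members and gave 0.30 over all arrays, 0.22 and 0.315 within the numbers, and 0 members lower in both. This filter used the mean over all 4 arrays, albino arrays included. It removed 244907_at and another unnamed lower member, whose control means (4.23 and 4.06) lay above the cut of about 4.01. Their albino means were 3.66 and 3.79. The higher medians and the 0 lower are thus partly set by the filter. With the 10 single-gene members, 8 were higher and 0 lower in both numbers, and the medians were 0.33, 0.30 and 0.33. With all 23 single-gene mitochondrial probe sets the medians were 0.31, 0.26 and 0.33, and 1 was lower in both. Without cross-hybridization suffixes 10 members were higher in both.

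Of the 11 members followed, 5 changed sign. AT2G07776 was -0.0488 after quantile normalization and -0.0246 after cyclic loess. With 1 array left out, AT2G07776 ran from -0.10 to 0.13, 244906_at from -0.21 to 0.60, 244914_at from -0.12 to 1.35, 244918_at from -0.57 to 0.30 and 244911_at from -0.44 to 0.11. Over the same fits ccb382 ran from 0.51 to 1.62 and nad4L from 0.19 to 1.07. The median of the nuclear complex I list ran from -0.31 to 0.01, and that of complexes II and III from -0.68 to -0.32. Members higher or lower in both numbers cannot be counted with an array left out. The causes of these changes were not tested. Signal over background is not given in the table, which limits what the dim members show.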

Other observations

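In the TAIR10.1 annotation of the mitochondrial genome, nad4 and mttB (orfX on the array) are neighbouring protein-coding genes. Their differences were 0.40 and 0.33 in replicate 1 and 0.30 and 0.41 in replicate 2. The genes ccmFN1 (ccb382) and nad4L have 1 protein-coding gene between them, cox3, and differed by 1.64 and 1.12 in replicate 1, the largest of the 7 named mitochondrial members there. In replicate 2 they differed by 0.49 and 0.15, where nad4L had the smallest difference of the 7. On the other side of ccmFN1, beyond ccmC, lies ccmFN2 (ccb203), with 0.26 and 0.33. Members matR and nad7 flank nad5 and differed by 0.12 and 0.17 in replicate 1 and 0.33 and 0.45 in replicate 2. The 2 probe sets of nad5 differed by 1.68 and 0.15 in replicate 1 and by 0.82 and 0.35 in replicate 2. Which part of nad5 each of them reads, and where it lies in the genome, was not examined. Outside the block, the neighbours cox2 and ccmB went opposite ways in replicate 1 (-0.58 and 0.24), with -0.04 and -0.25 in replicate 2. Strand and joint transcription of these genes were not examined, and likeness of neighbours was not tested.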
